A study of Mus musculus with 6 samples.

Results

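Epithelial cells of the tooth germ are held together by junction proteins, and 47 gene symbols that encode them were followed here in tooth germs of wild-type and Smad7-/- mouse embryos. The members were every symbol of the deposited tables that names a numbered claudin, a desmoglein, a desmocollin, a plakophilin or a zonula occludens protein (Tjp), together with Dsp, Jup, Ocln, Cdh1, Cdh3 and Epcam. They comprise 25 claudins, 4 genes for occludin and the tight junction scaffolds, 3 for the adherens junction cadherins and Epcam, 9 desmosomal cadherins and 6 desmosome plaque genes, of 23420 symbols in all. RNA of E15.5 tooth germs of the C57BL/6 strain was sequenced in 6 libraries, 3 labelled wild type and 3 labelled Smad7-/-, with no other allele or treatment named. The comparison asks which transcripts differ when Smad7, an inhibitor of TGF-beta and BMP signalling, is disrupted. The labels do not say whether tooth germs were pooled or whether the libraries of a group came from separate embryos. The p-values therefore rest on the spread among these 6 samples alone, and part of that spread may be technical. Xist differed between libraries within each group, as given below.

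Tight junctions seal the space between neighbouring epithelial cells. Claudins form their strands and set which ions pass, and the zonula occludens proteins tie the strands to actin. Adherens junctions join cells through classical cadherins. Desmosomes join them through desmogleins and desmocollins, which plakophilins, plakoglobin (Jup) and desmoplakin (Dsp) anchor to keratin filaments. In the developing tooth these contacts hold the enamel organ together, and TGF-beta signalling is known in many epithelia for lowering junction genes through repressors of the Snail, Zeb and Twist families.

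The libraries held 37591888 to 56575476 counts. Smad7 itself had 859 to 1097 counts in wild type but 41 to 80 with the Smad7-/- label, so all 6 libraries matched their labels. The libraries also stood apart in a way that crossed the genotypes. Wild-type library 1 with Smad7-/- libraries 1 and 2 lay on one side of the leading axis of variation (33.5% of the variance), and the other 3 lay on the opposite side. Xist was present in wild-type library 1 (195 CPM) and in Smad7-/- library 3 (365 CPM). CPM are counts scaled to a common library size. Basal epithelial keratins were abundant (Krt5 at 3403 to 4556 CPM), as was the dental epithelial transcription factor Sp6 (1400 to 1969 CPM), and 9 of 9 dental mesenchyme markers were detected. Salivary gland markers summed to 0.639 to 2.18 CPM, with Smgc and Pip at 0 in all 6 libraries, and skeletal muscle markers summed to 2.34 to 6.62 CPM. Markers of keratinised layers summed to 53.6 to 94.95 CPM, of Schwann cells to 150 to 169 CPM and of neurons to 278 to 361.5 CPM. In such bulk RNA, fewer epithelial cells and less RNA per epithelial cell cannot be told apart.

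A core set of junction genes was strongly expressed in wild-type tooth germs, and many family members were nearly silent. Levels are compared between genes as RPKM, which are CPM per kilobase of annotated exon. E-cadherin (Cdh1), the main cadherin of epithelial adherens junctions, stood highest at 190.5 ± 14.5 RPKM (mean ± SD, n = 3 libraries). The desmosomal cadherin gene Dsc3 followed at 159 ± 35.7 RPKM, and its range of 135 to 200 RPKM overlapped that of Cdh1, 174 to 202 RPKM. Epcam, an epithelial adhesion molecule that binds claudins, was at 136.8 ± 10.96 RPKM, overlapping the range of Dsc3. Dsp, which links desmosomes to keratin, came next at 108 ± 12.6 RPKM, and its highest wild-type library (119 RPKM) lay below the lowest of Epcam (124 RPKM). Of the 47 members 36 passed the filter on low counts. The other 11 were Dsg4 and Cldn3, Cldn9, Cldn14, Cldn16, Cldn18, Cldn19, Cldn22, Cldn23, Cldn24 and Cldn26 (Tmem114 in the annotation), none of which had more than 11 counts in any library. Cldn18 and Cldn24 had no count in any library, which allows up to 3 counts per library, or 0.0530 to 0.0798 CPM, for counting error only.

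Among the claudins, Cldn1, which seals the barrier of skin, dominated. It made up 39.0 ± 2.14% of the summed RPKM of the 24 claudins with an annotated length in wild type and 41.5 ± 4.36% in Smad7-/- (n = 3 libraries per group). Cldn20 came next at 13.7 ± 3.74%. Its level is uncertain, because the annotation gives it 660 bases of coding sequence only and places it inside Tfb1m on the opposite strand. Cldn12, a claudin without the usual scaffold-binding end, held 11.7 ± 1.06%. Cldn6, a claudin of embryonic epithelia, held 8.47 ± 0.784% and the ion channel former Cldn10 8.21 ± 2.07%, so these neighbours did not differ beyond their spread. Cldn5, the claudin of blood vessel walls, held 6.96 ± 1.21%, the sealing claudin Cldn4 5.38 ± 1.70%, the anion channel former Cldn17 3.20 ± 0.355% and Cldn8 1.41 ± 0.243%. Cldn3 and Cldn7, which accompany Cldn4 in many simple epithelia, held 0.0197 ± 0.0171% and 0.186 ± 0.120%. The channel formers Cldn2 and Cldn15 held 0.0642 ± 0.00551% and 0.104 ± 0.0767%. Cldn25 had 115 to 121 CPM in all 6 libraries, but this symbol is an older name of both Cldnd1 and Cldn25-ps in RefSeq, so no length or position is given for it.

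Among desmosomal cadherins, too, single genes led their families. Dsg2, the desmoglein of simple and proliferating epithelia, made up 72.4 ± 5.27% of desmoglein RPKM in wild type and 71.3 ± 3.02% in Smad7-/- (n = 3 libraries per group). Dsg1a, a desmoglein of upper epidermal layers, held 17.2 ± 4.50%, while Dsg3, a basal layer desmoglein, held 5.32 ± 0.219% and Dsg1b 4.86 ± 0.909%. Dsg1a, Dsg1b and Dsg1c are close copies of each other, so their split is uncertain. Among desmocollins Dsc3 made up 82.3 ± 1.15% and Dsc2 17.7 ± 1.14%, with Dsc1, a gene of keratinising layers, at 0.0609 ± 0.0109%. In the plaque, Pkp1, which clusters desmosomes in stratified epithelia, led the plakophilins at 45.6 ± 1.95%, followed by Pkp3 at 30.5 ± 0.833% and Pkp4 at 23.9 ± 1.86%. Pkp2, the plakophilin of heart and simple epithelia, held 0.0437 ± 0.0179%. Jup stood at 29.9 ± 1.21 RPKM. Tjp1, a zonula occludens scaffold, stood at 28.29 ± 1.498 RPKM and its relative Tjp3 at 0.228 ± 0.0728 RPKM. P-cadherin (Cdh3), the cadherin of budding epithelial appendages, made up 22.2 ± 0.297% of the summed Cdh1 and Cdh3 RPKM in wild type and 23.2 ± 2.62% in Smad7-/-.

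**Figure D1:**
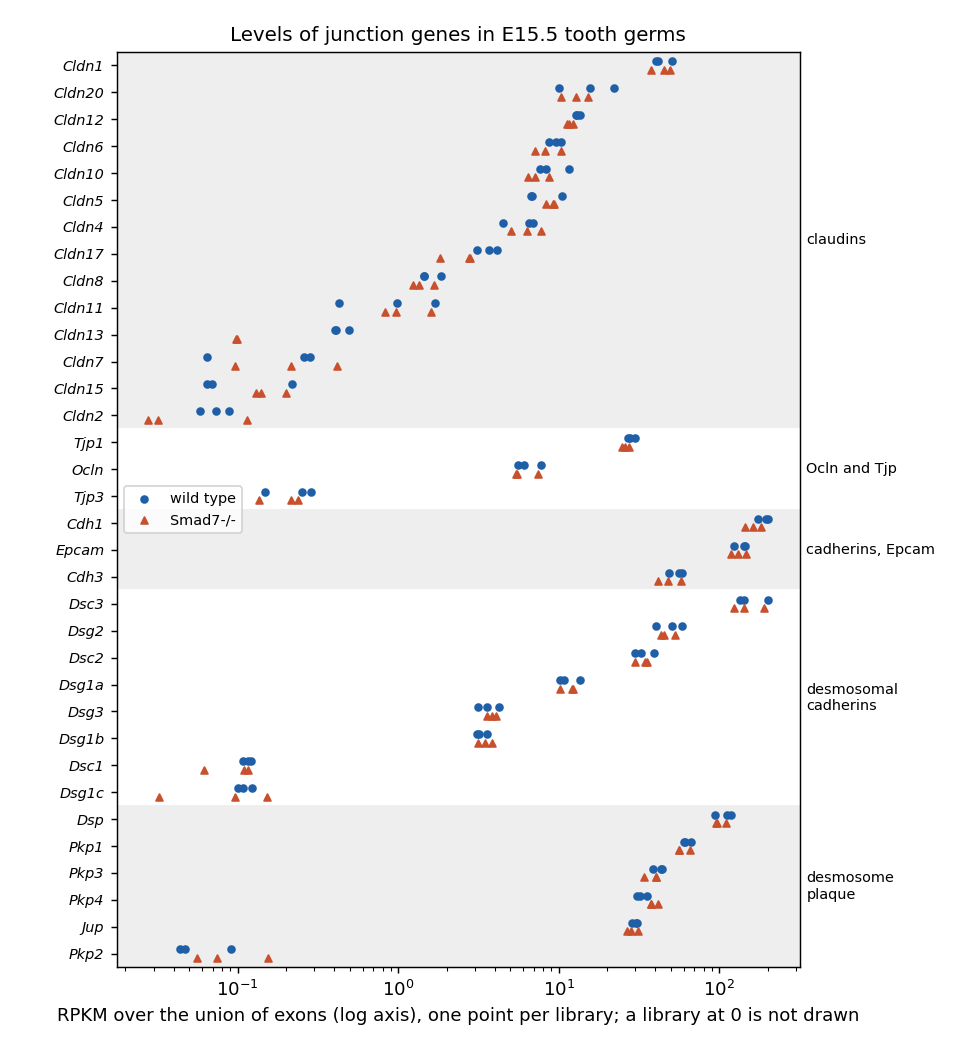
RPKM (log axis) of tested members with an annotated length, 1 point per library, wild type as circles and Smad7-/- as triangles, grouped by role and ordered by wild-type mean. Cdh1, Dsc3, Epcam and Dsp lie near or above 100 RPKM, while Cldn2, Cldn15, Dsc1, Dsg1c and Pkp2 lie near 0.1 RPKM; Smad7-/- library 2 is at 0 for Cldn13 and is not drawn.

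Genes that lie side by side on a chromosome differed widely in level. Cldn13, Cldn4 and Cldn3 lie together on chromosome 5 (mm10), Cldn13 at 134914249 to 134915526, Cldn4 at 134945119 to 134946934 and Cldn3 at 134986214 to 134987472. Their wild-type levels were 0.436 ± 0.0497, 5.95 ± 1.30 and 0.0210 ± 0.0182 RPKM (n = 3). Cldn6 (chromosome 17, 23679249 to 23682446) was at 9.56 ± 0.795 RPKM and its neighbour Cldn9 (23682584 to 23684026) at 0.102 ± 0.0556 RPKM. All 9 desmosomal cadherins lie in a row on 1 chromosome, and range from Dsc3 at one end of it, at 159 RPKM, to Dsg4 near the other, at 0.0158 ± 0.0137 RPKM. Cdh3 and Cdh1 are neighbours on chromosome 8 (106510891 to 106557297 and 106603351 to 106670246), and both were abundant. Cldn22 lies wholly within an exon of Wwc2 on the opposite strand, and the library kit does not record strand, so its at most 8 counts per library cannot be assigned to it.

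Promoters were examined because repressors that bind the E-box CAGGTG are described below with the members. The windows run from 250 bases before to 50 after a transcription start (RefSeq, GRCm38.p6). Windows of the 9 desmosomal cadherins were not taken, and 26 of the other members had at least 1. Members without a window include Cdh1, Cdh3, Pkp1, Pkp3 and Cldn13, so the E-box counts do not cover E-cadherin. CAGGTG on either strand (CACCTG when read on the other) was present in 12 of 37 member windows (32.4%), against 20.2% of all 32851 windows, and in at least 1 window of 10 of the 26 members. The 32851 windows were not restricted in that way. Windows of a gene can overlap, and 1 E-box of Ocln is counted in 2 windows. AACNGGTT, the core bound by Grainyhead-like factors, was present in 1 of 37 windows (2.70%, that of Cldn5) against 2.09%, and the SMAD palindrome GTCTAGAC in 0 against 0.213%. A match is a description of letters and not a bound site. The windows of Epcam (chr17:87635729-87636028, forward strand), Cldn4 (chr5:134946885-134947184, reverse) and Ocln (chr13:100552449-100552748, reverse) are shown because each holds 2 such E-boxes, as do windows of Cldn6 and Cldn7. That of Cldn17 (chr16:88506929-88507228, reverse) is shown because its libraries separated by genotype; these letters are absent from it. Capitals mark CAGGTG or CACCTG.
Epcam: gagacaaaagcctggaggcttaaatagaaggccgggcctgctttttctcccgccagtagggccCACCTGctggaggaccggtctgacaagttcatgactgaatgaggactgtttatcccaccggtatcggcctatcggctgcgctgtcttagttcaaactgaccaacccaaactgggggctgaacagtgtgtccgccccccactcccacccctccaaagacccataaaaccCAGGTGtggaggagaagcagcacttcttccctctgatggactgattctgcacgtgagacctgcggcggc
Cldn4: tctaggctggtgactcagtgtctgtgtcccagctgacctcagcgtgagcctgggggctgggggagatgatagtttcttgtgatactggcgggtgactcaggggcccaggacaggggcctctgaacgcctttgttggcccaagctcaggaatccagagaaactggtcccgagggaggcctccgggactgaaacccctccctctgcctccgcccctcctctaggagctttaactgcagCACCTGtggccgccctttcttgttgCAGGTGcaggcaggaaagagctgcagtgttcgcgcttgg
Ocln: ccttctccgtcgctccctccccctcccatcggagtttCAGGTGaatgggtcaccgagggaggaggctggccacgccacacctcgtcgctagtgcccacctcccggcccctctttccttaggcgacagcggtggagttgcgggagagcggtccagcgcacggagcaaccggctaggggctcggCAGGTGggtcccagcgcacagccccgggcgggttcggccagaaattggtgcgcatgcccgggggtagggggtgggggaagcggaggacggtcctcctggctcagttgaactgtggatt
Cldn17: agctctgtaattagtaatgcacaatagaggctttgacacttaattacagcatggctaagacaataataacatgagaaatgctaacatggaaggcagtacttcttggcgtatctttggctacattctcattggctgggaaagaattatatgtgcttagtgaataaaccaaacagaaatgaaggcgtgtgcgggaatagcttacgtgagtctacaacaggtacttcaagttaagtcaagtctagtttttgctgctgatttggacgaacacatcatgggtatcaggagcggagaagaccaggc

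No junction gene passed the test between genotypes. The quasi-likelihood test of edgeR called 0 of the 36 tested members at an adjusted p under 0.05, against 4 of all 15284 genes (0.0262%), and the smallest adjusted p of a member was 0.608, for Cldn13. At an unadjusted p under 0.05 there were 3 members (8.33%), where all genes gave 5.14%. Of these, 1 was higher in Smad7-/- (Pkp4; 3.26% of all genes) and 2 were lower (Cldn13 and Cldn17; 1.88%). DESeq2 and limma-voom also called 0 members, with 4 and 3 at an unadjusted p under 0.05, and DESeq2 called 0.400% of all genes it adjusted. The 4 of DESeq2 include Cldn3, which is not among the 36 members tested by edgeR. The ranges of the 2 groups of libraries did not overlap for 4 of the 36 tested members (11.1%), against 8.88% of all genes. These were Cldn12, Cldn13 and Cldn17 on the lower side (3.91% of all genes) and Pkp4 on the higher side (4.97%). Cldn13, which is in both counts, passed the filter on low counts only through its wild-type libraries. Log2 changes were below 0 for 26 of 36 members (72.2%), against 50.9% of all genes, and their median was -0.083, against -0.003. Epithelial markers had lower estimates in the same libraries for 7 of 10 genes (median -0.097). The groups did not overlap for Shh, a signal of the enamel knot, at 488 to 598 CPM in wild type and 380 to 449.5 in Smad7-/-, or for Sp6, at 1655 to 1969 and 1400 to 1590 CPM (edgeR unadjusted p = 0.00665 and 0.0406, adjusted p = 0.696 and 0.919). Krt15, of the same list, went the other way, at 8.72, 10.7 and 8.27 CPM in wild type and 17.9, 12.9 and 9.03 in Smad7-/-. Its groups overlapped (log2 0.52 ± 0.23 SE, edgeR unadjusted p = 0.049, adjusted p = 0.963). The summed level of the 10 markers was 9067 to 9793 CPM in wild type and 7675 to 9304 CPM in Smad7-/-, and its part in the members' values was not tested. The covariate fit given below uses another measure, a mean over an epithelial reference list of 6 genes. By role, the medians were -0.16 for claudins (6 higher, 9 lower), -0.15 for Cdh1, Cdh3 and Epcam (0 and 3), -0.048 for desmosomal cadherins (2 and 6) and -0.073 for the plaque (2 and 4). The median standard error of a member's log2 change was 0.146, against 0.138 over all genes. Members share cells and loci, so these counts are a description and not a test.

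**Figure D2:**
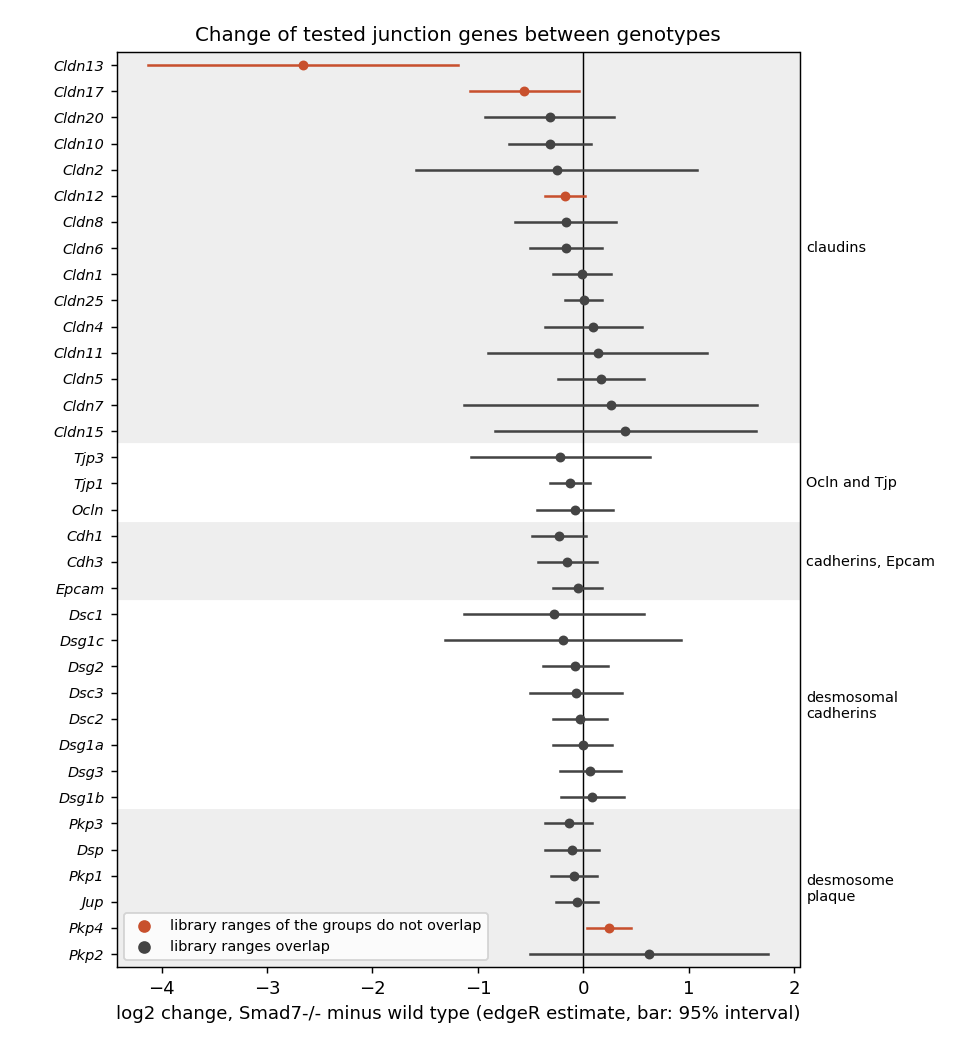
Log2 change between genotypes (Smad7-/- minus wild type) of tested members, with 95% intervals of the edgeR fit, grouped by role. The intervals of Cldn13, Cldn17 and Pkp4 lie clear of 0 before adjustment, and Cldn12 is the fourth member whose libraries separate by genotype.

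Cldn13 had the largest estimate among the tested members. This rodent claudin has been described in red blood cell precursors as well as in epithelia. It had 22, 26 and 21 counts in wild type and 4, 0 and 6 in Smad7-/-, or 0.429, 0.526 and 0.440 against 0.106, 0 and 0.104 CPM. All 3 Smad7-/- libraries lay below all 3 wild-type libraries. Only the wild-type counts were high enough for the filter on low counts, so Cldn13 was tested because it was high in that group. Its fold, interval and p-value are therefore a description and do not by themselves support a difference. The estimate was 0.158 of the wild-type level (log2 -2.66 ± 0.66 SE, n = 3 per group; edgeR unadjusted p = 0.00236, adjusted p = 0.608; 95% interval -4.13 to -1.19). Markers of red blood cells were lower in the same libraries. All 3 tested markers of that list of 10 were lower, 2 of them at an unadjusted p under 0.05, and their summed level was 35.5 to 50.7 CPM in wild type and 16.8 to 28.7 CPM in Smad7-/-. The anion exchanger Slc4a1 was at 17.1, 16.3 and 14.7 CPM in wild type and at 2.82, 1.38 and 11.5 CPM in Smad7-/-. Alas2, the first enzyme of haem synthesis in red cells, went from 30.5, 16.1 and 21.8 CPM to 13.7, 15.1 and 15.52 CPM. For both genes the groups did not overlap. Slc4a1 was lowest in Smad7-/- library 2, which had no Cldn13 count, while Alas2 was lowest in Smad7-/- library 1. The symbols Hba-a1, Hba-a2, Hbb-b1 and Hbb-b2 were at 0 in all 6 libraries. The part of red blood cell content in the Cldn13 difference was not tested.

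**Figure D3:**
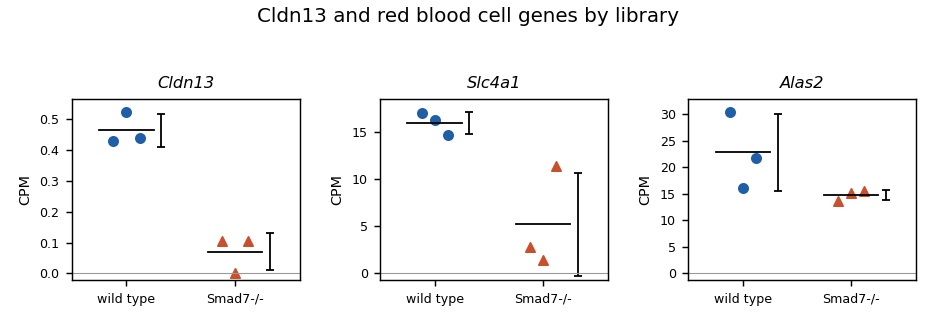
CPM of Cldn13 and of the red blood cell genes Slc4a1 and Alas2 in each library, with group means (lines) and SD (bars, n = 3). In each panel the Smad7-/- libraries lie below the wild-type libraries, and Smad7-/- library 2 is at 0 for Cldn13.

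Cldn17 was the other claudin at an unadjusted p under 0.05. Its CPM were 3.61, 4.81 and 4.33 in wild type and 2.13, 3.22 and 3.26 in Smad7-/-, so the groups did not overlap, although the lowest wild-type and the highest Smad7-/- library were close. The log2 change was -0.56 ± 0.23 SE (n = 3 per group; edgeR unadjusted p = 0.0361, adjusted p = 0.9). Cldn8, its neighbour on chromosome 16, went from 3.73 ± 0.551 to 3.33 ± 0.542 CPM, and the groups overlapped. Cldn12 had 54.0, 55.2 and 57.2 CPM in wild type and 48.7, 51.6 and 47.4 in Smad7-/-. Its highest and lowest libraries differed 1.21-fold, less than for any other tested claudin but Cldn25. The groups did not overlap, at a log2 change of -0.17 ± 0.085 SE (edgeR unadjusted p = 0.0690, adjusted p = 0.995).

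The dominant claudin did not separate. Cldn1 had 195, 202 and 246 CPM in wild type and 237.5, 217 and 181 in Smad7-/-, with the highest and the lowest library in opposite groups, and its log2 change was -0.015 (95% interval -0.29 to 0.26). Cldn20 varied most among the more abundant claudins, with 6.57, 10.4 and 14.6 CPM in wild type and 6.79, 10.01 and 8.44 in Smad7-/-, and its groups overlapped. Cldn10 (log2 -0.32 ± 0.17 SE, n = 3), Cldn6 (-0.16 ± 0.15) and Cldn4 (0.095 ± 0.21) overlapped as well. Cldn5 was at 9.60, 9.44 and 14.8 CPM in wild type and 11.9, 12.97 and 13.2 in Smad7-/- (log2 0.17 ± 0.18 SE). All 10 endothelial markers were higher in Smad7-/-, 1 of them at an unadjusted p under 0.05, and their summed level was 386, 283 and 425 CPM in wild type and 406, 425 and 436 CPM in Smad7-/-; their part in the Cldn5 values was not tested. Cldn11, a claudin of myelin, ran from 0.800 to 3.18 CPM in wild type and from 1.54 to 2.99 in Smad7-/-. Cldn2, Cldn7 and Cldn15 had at most 35 counts in a library, and the upper ends of their 95% intervals were 1.081, 1.65 and 1.64, so these data do not exclude a doubling. Cldn3, which did not pass the filter, had 2, 2 and 0 counts in wild type and 10, 5 and 7 in Smad7-/-. The groups did not overlap, and the edgeR test as reported did not include it. DESeq2 gave it an unadjusted p = 0.0471 and no adjusted p, and no fold is given at these counts.

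Tjp1, Tjp3 and Ocln had slightly lower estimates in Smad7-/-, and their groups overlapped. Tjp1, the scaffold that recruits claudins, had 212, 234 and 217 CPM in wild type and 203, 192 and 213 in Smad7-/-. Only the highest Smad7-/- library reached into the wild-type range, at a log2 change of -0.12 ± 0.086 SE (n = 3; 95% interval -0.32 to 0.067). Ocln, a strand protein beside the claudins, was at 27.2 ± 4.74 and 25.8 ± 4.91 CPM. Tjp3 had 22 to 51 counts per library, and its interval of -1.07 to 0.63 is wide.

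E-cadherin lay near the edge of separation. Cdh1 had 924.7, 892.5 and 797.5 CPM in wild type and 745, 827 and 656 CPM in Smad7-/-, so that Smad7-/- library 2 alone reached above the lowest wild-type library. The log2 change was -0.23 ± 0.11 SE (n = 3 per group; edgeR unadjusted p = 0.0709, adjusted p = 0.995), with a 95% interval of -0.48 to 0.024. Cdh3 had 256, 247 and 214 CPM in wild type and 252, 211 and 183 in Smad7-/- (log2 -0.15 ± 0.13 SE). Epcam had 315, 314 and 272.5 CPM in wild type and 321.5, 287 and 261 in Smad7-/- (log2 -0.052 ± 0.11 SE), and its highest and lowest libraries were both Smad7-/-. With the side of the leading axis of variation as a covariate, the changes of Cdh1, Cdh3 and Epcam were -0.30 ± 0.084, -0.24 ± 0.099 and -0.11 ± 0.086 SE, with edgeR unadjusted p = 0.00626, 0.039 and 0.237 and adjusted p = 0.476, 0.729 and 0.952, so that none was called. In the same fit Cldn17 and Pkp4 lay nearer to 0 than without the covariate, at -0.46 ± 0.22 and 0.21 ± 0.075 SE. Their edgeR unadjusted p were 0.0651 and 0.0227 (adjusted p = 0.811 and 0.665). Pkp3 stood at -0.20 ± 0.079 SE in that fit (edgeR unadjusted p = 0.0316, adjusted p = 0.701). The axis was computed from these same libraries, and the genotypes are split unevenly between its sides, so the covariate is not independent of genotype.

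**Figure D4:**
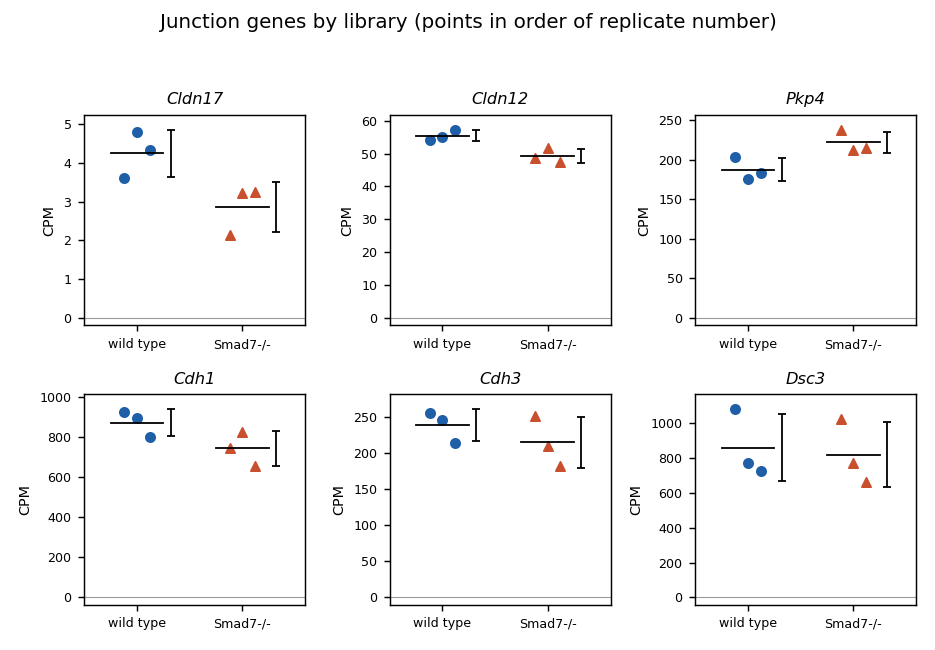
CPM of Cldn17, Cldn12, Pkp4, Cdh1, Cdh3 and Dsc3 in each library, with group means (lines) and SD (bars, n = 3). Cldn17 and Cldn12 lie lower and Pkp4 higher in all 3 Smad7-/- libraries, Cdh1 and Cdh3 overlap, and Dsc3 is high in library 1 of both groups.

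Of the 14 tested desmosome genes, Pkp4 alone had groups that did not overlap, and none passed the test. Groups did not overlap for 8.88% of all tested genes, so this count is near the share over all genes. Pkp4 encodes a plakophilin relative found at adherens junctions as well as desmosomes. It had 203, 175.5 and 183 CPM in wild type and 238, 213 and 215 in Smad7-/-, with every Smad7-/- library above every wild-type library. The log2 change was 0.24 ± 0.092 SE, a level 1.18 times that of wild type (n = 3 per group; edgeR unadjusted p = 0.0242, adjusted p = 0.851). Its share of plakophilin RPKM was 21.8 to 25.3% in wild type and 27.9 to 29.6% in Smad7-/-. Dsp had 1082, 1147 and 912 CPM in wild type and 1059, 917 and 940 in Smad7-/- (log2 -0.11 ± 0.12 SE), and Pkp1 had 307, 336 and 302 CPM against 329, 282 and 280 (log2 -0.087 ± 0.097 SE). In both genes the groups overlapped. Jup and Pkp3, at log2 -0.059 ± 0.090 and -0.14 ± 0.099 SE, did so too. Pkp2 had 12 to 31 counts per library and a wide interval of -0.51 to 1.76.

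The 8 tested desmosomal cadherins had log2 changes from -0.28 (Dsc1) to 0.087 (Dsg1b), all with overlapping groups, and a median of -0.048. Dsc3 had 1081, 770 and 729 CPM in wild type and 1026, 774 and 662.5 in Smad7-/-. Its 2 high values were library 1 of each group, and the log2 change was -0.067 ± 0.19 SE (n = 3; 95% interval -0.50 to 0.37). Dsg2 had 482, 421 and 334 CPM in wild type and 439, 359.5 and 373 in Smad7-/- (log2 -0.077 ± 0.14 SE), again highest in library 1 of each group. Dsc2, Dsg1a and Dsg3 stood at -0.030 ± 0.12, -0.006 ± 0.13 and 0.068 ± 0.13 SE. For these 5 genes the intervals lay within -0.50 and 0.37. Dsg1c and Dsc1, at 5 to 36 counts per library, had intervals of -1.32 to 0.93 and -1.13 to 0.57.

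Libraries of one genotype also differed among themselves. Over the 25 tested members with a mean of at least 5 CPM, the median deviation from the 6-library mean (log2 of CPM plus 0.5) was 0.049, 0.080 and -0.036 in wild-type libraries 1 to 3. It was 0.055, -0.019 and -0.12 in Smad7-/- libraries 1 to 3. Smad7-/- library 3 was the lowest library for 12 of the 36 tested members (33.3%), against 16.5% of all genes, and wild-type library 2 was the highest for 12 (33.3%), against 15.3%. The epithelial reference list (6 genes, Krt5, Krt14, Krt15, Trp63 and Esrp1 among them) was also lowest in Smad7-/- library 3, at -0.19, and stood at 0.078, 0.052, -0.079, 0.11 and 0.033 in the other 5. These values are means of log2 CPM in which each gene weighs alike. The summed CPM of the list were 7450, 6932 and 6761 in wild-type libraries 1 to 3 and 6577, 7108 and 5689 in Smad7-/-. Smad7-/- library 1 was thus highest by the mean but below every wild-type library by the sum. The 11 desmosome members with a mean of at least 5 CPM had median deviations of 0.105 and 0.083 in library 1 of the groups and from -0.14 to -0.038 in the other 4. With the epithelial reference mean of log2 CPM as a covariate, the median log2 change of the members was -0.057 and 0 were called by edgeR, with 3 at an unadjusted p under 0.05. In that fit Pkp4 was at 0.26 ± 0.088 SE, Cldn17 at -0.62 ± 0.22 and Cdh1 at -0.20 ± 0.098. Their edgeR unadjusted p were 0.0154, 0.0196 and 0.0669 (adjusted p = 0.484, 0.493 and 0.621).

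**Figure D5:**
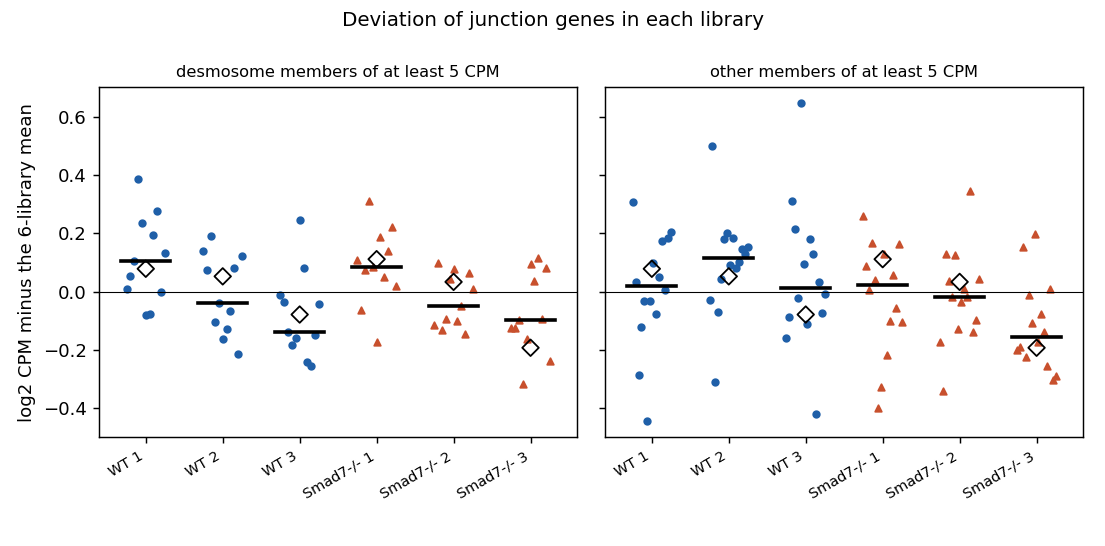
Deviation of each library from the 6-library mean (log2 CPM) for the 11 desmosome members and the 14 other members of at least 5 CPM, with medians (lines) and the epithelial reference list (open diamonds). By their medians, desmosome members are highest in library 1 of both groups, and the other members are lowest in Smad7-/- library 3. Single genes differ from this, and Dsg1a lies below its mean in library 1 of both groups.

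The partners of these proteins likewise held no gene called by edgeR. Of 20 other tight junction genes, 9 were higher and 11 lower, with a median log2 of -0.040 and 1 lower at an unadjusted p under 0.05. That gene was Ildr2, of the family that marks junctions where 3 cells meet, at 160, 163.5 and 180 CPM in wild type and 144, 155 and 129 in Smad7-/- (log2 -0.23 ± 0.096 SE, n = 3). Of 9 adherens junction partners 5 were higher and 4 lower (median 0.006). Beta-catenin (Ctnnb1), which binds cadherin tails, was the most abundant of these per length, at 736 RPKM in wild type and a log2 change of -0.085 ± 0.12 SE, and nectin 4 (listed as Pvrl4) came next, at 69.0 RPKM and -0.10 ± 0.10. Of the other desmosome genes Perp, Evpl, Ppl and Cdsn, 3 were lower and 1 higher. Envoplakin (Evpl), a keratin linker, had 60.7, 80.5 and 65.1 CPM in wild type and 51.9, 55.1 and 58.4 in Smad7-/-, and the groups did not overlap (log2 -0.32 ± 0.12 SE; edgeR unadjusted p = 0.0206, adjusted p = 0.827). Hemidesmosome genes were lower in 5 of 6 cases (median -0.11), with 0 at an unadjusted p under 0.05, and the most abundant per length were Cd151 at -0.14 ± 0.097 and Col17a1 at -0.020 ± 0.14. Connexins divided evenly, and Gja1, the main gap junction gene, was at 3287, 3253 and 3225 CPM in wild type and 2861, 3044 and 2730 in Smad7-/-. Its groups did not overlap, at log2 -0.18 ± 0.11 SE (edgeR unadjusted p = 0.134, adjusted p = 0.999). The barrier protease genes Prss8 and St14 and the protease inhibitor genes Spint1 and Spint2 all had lower estimates (median -0.15), with 0 at an unadjusted p under 0.05.

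Epithelial regulators were lower in 8 of 11 cases (median log2 -0.12). The splicing factor Esrp1 had 139, 149 and 126 CPM in wild type and 122, 113 and 121 in Smad7-/-, without overlap (log2 -0.22 ± 0.091 SE; edgeR unadjusted p = 0.0349, adjusted p = 0.9). Repressors of junction genes were higher in 6 of 6 cases (median 0.37), 4 of them at an unadjusted p under 0.05, where 3.26% of all genes were higher at that level, and edgeR called 0. Twist1 had 10.6 to 16 CPM in wild type and 18.8 to 21.6 in Smad7-/- (log2 0.55 ± 0.16 SE, n = 3). Twist2 stood at 0.49 ± 0.17, Snai1 at 0.37 ± 0.15 and Zeb2 at 0.36 ± 0.15, while Snai2 stood at 0.034 ± 0.096 and Zeb1 at 0.20 ± 0.16. The groups did not overlap for Twist1, Twist2 and Snai1, and they overlapped for the other 3. Mesenchyme is a known source of these factors, and bulk RNA does not show which cells made them here. In the same libraries 8 of 9 dental mesenchyme markers were higher, against 7498 of all 15284 genes, and 5 were higher at an edgeR unadjusted p under 0.05. Of the 9, edgeR called 0 and DESeq2 called 1, Prrx1 (log2 0.57, DESeq2 adjusted p = 0.00771). The summed level of the 9 markers was 426 to 498 CPM in wild type and 508 to 546 CPM in Smad7-/-, and the part of mesenchymal content in the repressor values was not tested. Cadherins of other cells showed no common direction. N-cadherin (Cdh2) ran from 87.8 to 136 CPM in wild type and from 78.2 to 145 in Smad7-/-, and the mesenchymal cadherin Cdh11 stood at 0.24 ± 0.12 and the endothelial Cdh5 at 0.22 ± 0.14 (log2 ± SE).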

How the data were processed

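The 6 libraries were made from total RNA with a kit that does not mark strand. HISAT2, featureCounts, DESeq2 and mm10 are named in the submitters' processing notes, while their versions and the strand setting are not given in the sources used here. The authors deposited raw counts per gene symbol without normalization. Spreadsheet dates had replaced 27 symbols (0.223% of a library's counts or less).

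Genes passing filterByExpr (minimum count 10, total 15; 15284 of 23420) were scaled by TMM and tested in edgeR 4.0.16 (R 4.3.3) by quasi-likelihood without covariates. The Benjamini-Hochberg adjustment ran over every tested gene, with a threshold of 0.05. The scripts were tested on simulated data. A standard error is the log2 change divided by the root of F. CPM use TMM-scaled totals, and RPKM use the union of exons in GENCODE M21 (GRCm38), which placed 46 of 47 members. The limit of 3 counts covers counting error only, because PCR copies cannot be told from separate molecules. Residuals of same-numbered libraries correlated at 0.235, -0.0769 and 0.147, and no label ties the numbers to a litter or day, so libraries were not paired. Alternatives were DESeq2 1.42.0, limma-voom (limma 3.58.1), other scalings and filters, a replicate block, 3 covariates and leaving out each library. The members and lists were chosen with earlier results of these data known. Values in every library are given for members with an unadjusted p under 0.05 or without overlap and for the 2 most abundant per role; some others were added after their values were seen, and a few genes are counted but not reported here by name.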

Additional observations from a re-analysis of the deposited data

How the results depend on the processing

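No member was called under any of the 16 other fits (other tools, scalings, filters, the replicate block, 3 covariates, or without any single library), and the median log2 change of the members stayed below 0 in all of them, from -0.13 to -0.048. The members at an unadjusted p under 0.05, 3 in the test as reported, were 5 with the replicate block, 5 with the side of the leading axis of variation as a covariate, and 1 to 5 without a single library (5 and 1 when wild-type library 1 or 2 was left out). The replicate block changed no call of a member. The members whose groups did not overlap, 4 with all libraries, were 6 to 9 without a single library, where fewer libraries make separation easier (16.7 to 25% of members, against 11.9 to 26.9% of all genes). Genes called over the whole table, 4 in the test as reported, were 60 by DESeq2, and 1 to 7 without a single library (2, 1 and 7 without Smad7-/- libraries 1, 2 and 3). Cldn13 fell below the filter of 1 mean CPM and ran from -3.15 to -2.12 elsewhere, Cldn17 from -0.67 to -0.39, Pkp4 from 0.19 to 0.30, Cldn12 from -0.21 to -0.15 and Cdh1 from -0.31 to -0.15, always on the same side of 0. Over these fits the adjusted p of Cldn13 was 0.163 to 1.00, with the lowest from DESeq2. The sign of the estimate changed in 1 to 5 fits for 14 of the 36 tested members, most often for Dsg1a, and the cause was not tested. With the longest transcript in place of the union of exons, the share of Cldn1 among claudins was 41.25%, that of Dsg2 among desmogleins 78.6% and that of Dsc3 among desmocollins 80.5%, because the lengths changed. Depth limits the genes with a few counts per library, such as Cldn2, Cldn7, Cldn15, Pkp2, Dsc1 and Dsg1c.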
